A study of Mus musculus with 24 samples.

Results

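The genes of the cytosolic ribosomal proteins were followed in the livers of mice given extracellular vesicles (EVs, small membrane-bound bodies that cells shed) or phosphate-buffered saline (PBS). Members were the rows of the count table whose symbol is Rpl or Rps with a number and an optional a, x or l, or is Rplp0, Rplp1, Rplp2 or Rpsa, and which held at least 1 CPM (reads of the gene per 1e+06 reads) of the library total in all 24 libraries. Of 81 such symbols among 23240 rows, 78 met the rule, 32 assigned to the small subunit (Rps27l included) and 46 to the large subunit, and all 78 were among the 13773 genes tested. The member nearest the limit was Rps21, with 13.8 CPM of the library total in its lowest library. The 3 symbols outside it were the muscle and testis paralogues Rpl3l, at most 0.187 CPM, Rpl39l, at most 0.0392 CPM, and Rpl10l, which had no count.

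Each ribosome is built from a small subunit, which reads the mRNA, and a large subunit, which joins the amino acids, and every subunit needs close to equal numbers of its proteins. Their mRNAs are abundant in nearly every cell, are short, and start with a run of pyrimidines (the 5′ terminal oligopyrimidine or TOP motif) through which the growth kinase complex mTORC1 controls their translation. Ribosomal protein genes are also the commonest parents of processed pseudogenes, intron-less copies made from mRNA, so their reads are hard to assign.

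The mice were female NOD scid gamma (NSG) mice, a strain without mature T, B and natural killer cells, with a stated age of 8 weeks. Injections by tail vein were given for 5 weeks, 2 in each, and livers were collected 2 days after the final one. The groups had 6 libraries each: EVs of the human breast cancer line MDA-MB-231 (MDA-MB-231 EV), EVs labelled MCF10A/miR-122 (MCF10A is a non-transformed human breast epithelial line and miR-122 a microRNA abundant in liver), EVs of MCF10A cells (MCF10A EV), each at about 10 µg an injection, and PBS. The names of the MCF10A EV libraries also carry the term pBABE, which their titles do not. The labels do not say that a library is 1 mouse, and if libraries shared an animal, p-values would measure technical spread.

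The names of 12 libraries go against their labels. Each of the 6 labelled MDA-MB-231 EV carries a library name that points to the miR-122 vesicles, each of the 6 labelled MCF10A/miR-122 EV one that points to the MDA-MB-231 vesicles, and groups are called by their label here. These 12 libraries also stood apart from the other 12. Serpina3a, of the serpin family, ranged over 0.285 to 5.85 CPM in them and over 109.6 to 325 CPM in the MCF10A EV and PBS libraries, and total counts were 26819650 to 33732639 in them and 21336818 to 29268884 in the others. Any difference of MDA-MB-231 EV or MCF10A/miR-122 EV from MCF10A EV or PBS cannot be told apart from this split. All 10 hepatocyte markers were detected, at 107634 to 144933 summed CPM, and the 7 lymphocyte markers summed to 0.854 to 2.27 CPM.

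Because sequence copies bear on every value, they come first. On GENCODE M21 transcripts, the coding sequences of the 78 genes (75 to 1257 bases) shared a median of 97.2% of their 32-base words with another gene, and 32 of the 78 shared all of them. There were 934 pairs of a member and another gene with at least 10% of the member's words, and in 909 of these pairs the other gene was annotated as a pseudogene. Members with few shared words included Rpl8 at 10.9%, Rps3 at 18.1% and Rpl4 at 37.6%.

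Of the 934 pairs, 17 had the other gene as a row of its own in the count table, and 3 of these show how alike the letters are. A 120-base stretch of the member's coding sequence is set over the same stretch of its processed pseudogene, in GRCm38 transcripts and with the differing bases in capitals. For Rpl26 (chromosome 11) and Gm15772 (chromosome 5), it runs from base 169 to base 288 of the coding sequence and holds both of the mismatches found over 435 aligned bases (99.5% identity).
Rpl26: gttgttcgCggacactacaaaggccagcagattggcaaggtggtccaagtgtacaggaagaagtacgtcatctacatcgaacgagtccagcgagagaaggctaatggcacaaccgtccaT
Gm15772: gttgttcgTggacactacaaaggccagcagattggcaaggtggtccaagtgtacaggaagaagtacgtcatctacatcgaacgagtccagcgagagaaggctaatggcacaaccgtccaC
For Rpl34 (chromosome 3) and Rpl34-ps1 (chromosome 6), it runs from base 13 to base 132 and holds 1 of the 2 mismatches over 351 bases (99.4% identity).
Rpl34: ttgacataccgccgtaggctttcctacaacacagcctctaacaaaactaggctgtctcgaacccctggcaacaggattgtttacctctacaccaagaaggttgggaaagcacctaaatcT
Rpl34-ps1: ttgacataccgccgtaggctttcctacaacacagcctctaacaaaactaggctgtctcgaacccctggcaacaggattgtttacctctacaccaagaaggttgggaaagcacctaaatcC
For Rpl30 (chromosome 15) and Gm12191 (chromosome 11), it runs from base 1 to base 120 and holds the 1 mismatch over 345 bases (99.7% identity).
Rpl30: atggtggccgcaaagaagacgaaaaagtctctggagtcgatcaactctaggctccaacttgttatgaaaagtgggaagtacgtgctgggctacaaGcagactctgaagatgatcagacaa
Gm12191: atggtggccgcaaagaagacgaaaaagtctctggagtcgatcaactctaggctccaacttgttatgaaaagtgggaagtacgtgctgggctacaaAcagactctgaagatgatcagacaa

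The deposited counts of such rows were nearly the same numbers. Rpl26 and Gm15772 held the same count in 16 of 24 libraries and differed by 1 read at most, at 2304 to 4070 and 2303 to 4069 counts. Gm12191 held 98.3% to 99.4% of the count of Rpl30, and Rpl34-ps1 held 93.6% to 97.7% of that of Rpl34. Other copies included Rps15a-ps6, with 71.5% to 85.2% of the count of Rps15a, BC004004, with 88.4% to 126% of that of Rpl21, and Gm10653, with 17.8% to 26.03% of that of Rps2. The lowest was Gm10548, with at most 0.497% of the count of Rpl29. Wdr89, a protein-coding gene that shares 79.6% of the words of Rplp2, held 210.3% to 287% of its count. By group this ratio was 262% to 279% in MDA-MB-231 EV, 249% to 287% in MCF10A/miR-122 EV, 214% to 223% in MCF10A EV and 210.3% to 224% in PBS, so the MDA-MB-231 EV and MCF10A/miR-122 EV libraries did not overlap with the others in it. Rpl34-ps1 over Rpl34 was 93.8% to 95.1% in MDA-MB-231 EV, 93.6% to 95.04% in MCF10A/miR-122 EV, 94.99% to 97.7% in MCF10A EV and 95.8% to 96.4% in PBS. What was done with multi-mapping reads is not given in the sources used here. The value of a member with copies may therefore include reads of its copies or lack some of its own.

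**Figure D1:**
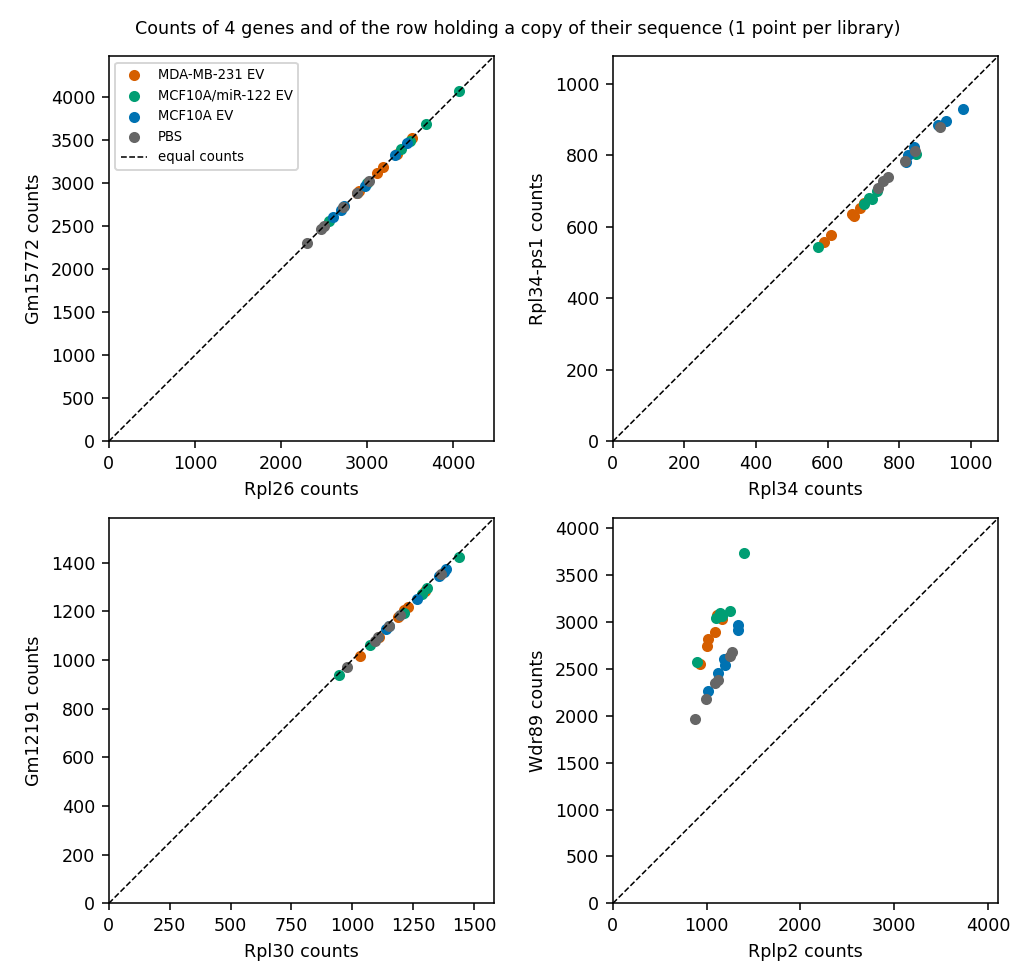
Deposited counts of Rpl26, Rpl34, Rpl30 and Rplp2 (horizontal axes) against the counts of the row that holds a copy of their sequence (vertical axes), 1 point per library, coloured by group; the dashed line marks equal counts. The first 3 pairs lie on or just under the line, and Wdr89 lies above it.

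The 78 genes together took 0.712% to 1.01% of the counts of a library. Per kb of transcript, Rps2, a protein at the mRNA entry of the small subunit, was highest, at 394 CPM per kb (mean of 24 libraries). Rpl41, which encodes the shortest of the proteins, followed at 368, and Rpl10, needed for the last step of large-subunit maturation, at 336 CPM per kb. The lowest were Rps20 at 22.2, Rps21 at 48.6 and Rpl37 at 49.5 CPM per kb, against a median of 136 over the members. The transcript taken for Rps20 is 3706 bases long, which lowers its value. That taken for Rpl37 has 835 bases for a coding sequence of 291, so its place also depends on the transcript taken. The level per kb had a rank correlation of -0.15 with the share of words in other genes, across 78 genes that are not independent replicates.

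Between libraries the members moved as a block. With group means removed, the mean correlation between pairs of members over the 24 libraries was 0.85 on log2 CPM, with 0.86 among small-subunit genes and 0.84 among large-subunit genes. It was 0.49 among 76 mitochondrial ribosomal protein genes, 0.38 among 10 small nucleolar RNA host genes, 0.28 among 19 other TOP genes, 0.20 among 48 ribosome biogenesis factors and 0.00 over all genes tested. Members share libraries, scaling and short length, and some have near-identical copies, so these are descriptions. Of the 78, 51 followed the mean of the other members at r of 0.9 or more. Rpl3, which lies near the peptidyl transferase centre, followed it least, at 0.35, then Rpl34 at 0.57, Rps21 at 0.63, Rps27l, a paralogue of Rps27 induced by p53, at 0.63, and Rpl9 at 0.65.

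The level common to the members varied within groups as much as between them. The mean of log2 CPM over the 78 genes had its lowest, median and highest values at 6.30, 6.43 and 6.64 in MDA-MB-231 EV, 6.19, 6.50 and 6.73 in MCF10A/miR-122 EV, 6.38, 6.67 and 6.78 in MCF10A EV and 6.22, 6.39 and 6.58 in PBS. All 4 groups overlapped, and the whole range was 0.59 on the log2 scale, or 1.5-fold. Summed over the members, levels were 8299 ± 648, 8498 ± 1278, 9028 ± 849 and 7798 ± 794 CPM in the same order of groups (SD, n = 6 each). Fewer cells of a type and less RNA per cell cannot be told apart in such bulk samples.

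**Figure D2:**
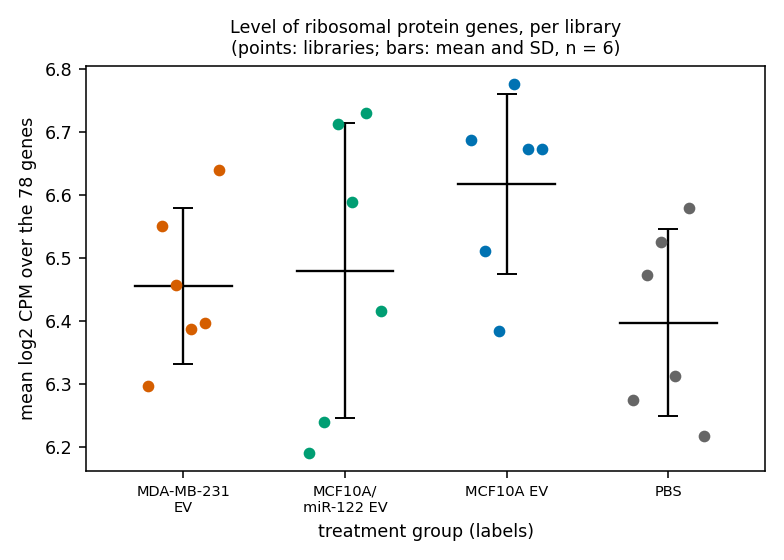
Mean of log2 CPM over the 78 genes (vertical axis) in each library, by treatment group; points are libraries, bars are the mean and SD (n = 6). The groups overlap, and the MCF10A/miR-122 EV libraries spread from 6.19 to 6.73.

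Single members differed in how much they varied. The SD of log2 CPM over 24 libraries was largest for Rps28 (0.31), Rpl34 (0.30) and Rps21 (0.29) and smallest for Rpl4 (0.13), Rpl22 (0.13) and Rps3 (0.13), with a median of 0.20. Genes at low CPM and with short transcripts varied more: across the 78 genes the rank correlation of this SD was -0.55 with mean CPM and -0.48 with transcript length.

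In MCF10A EV livers all 78 members had a higher fitted level than in PBS livers, by small amounts, and none passed the threshold of an adjusted p of 0.05 (edgeR's quasi-likelihood test, Benjamini-Hochberg over 13773 genes), against 1.07% of all genes called (0.37% higher, 0.697% lower). The median log2 fold change was 0.22, equal in the small (0.22) and the large subunit (0.22), with a range of 0.09 to 0.32 and a median of 0.01 over all genes. The libraries overlapped for all 78 members, and did not for 0.9% of all genes. An unadjusted p under 0.05 was reached by 51 of the 78 members (65.4%) and by 17.3% of all genes. DESeq2 and limma-voom called none either. Since the members move together between libraries, the count of 78 rests on 1 shared difference of 6 libraries against 6. The median of 1307 other genes with transcripts under 1000 bases was 0.11, and scaling by library totals, which shifted the median of all genes by -0.10, left a member median of 0.13 with 77 of 78 above 0.

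The 3 smallest p-values in this comparison were those of Rps12, Rpl10 and Rps21. Rps12, a small-subunit protein of the head domain, had a lowest, median and highest value of 63.9, 81.4 and 89.0 CPM in MCF10A EV and 53.5, 62.7 and 75.8 CPM in PBS. The groups overlapped, though all 6 MCF10A EV libraries lay above the PBS median. Its log2 fold change was 0.32 ± 0.11 (SE), with an adjusted p of 0.158 by the edgeR test. Rpl10 was at 260.9, 309 and 314 CPM in MCF10A EV and 220.2, 252 and 272 CPM in PBS (log2 fold change 0.26, edgeR adjusted p = 0.169). Rps21 was at 18.2, 24.3 and 27.6 CPM in MCF10A EV and 16.2, 19.7 and 22.2 CPM in PBS (0.28, edgeR adjusted p = 0.171).

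Members with further roles gave values of the same size in MCF10A EV over PBS. Among the stalk proteins, which bring elongation factors to the ribosome, the log2 fold change was 0.20 for Rplp0, 0.28 for Rplp1 and 0.20 for Rplp2. It was 0.27 for Rpsa, also known as the laminin receptor, 0.16 for Rps27a, made as a fusion with ubiquitin, 0.20 for Rps6, the substrate of S6 kinase, and 0.13 for the X-linked Rps4x. Rpl5 and Rpl11, which with 5S RNA bind the p53 regulator Mdm2 when ribosome assembly fails, were at 0.15 and 0.19, and Rps27l at 0.14. The edgeR adjusted p-values of these 10 genes were between 0.242 for Rplp1 and 0.518 for Rps27l.

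In MCF10A/miR-122 EV livers, 3 members were higher and 1 lower than in PBS livers, 5.13% of the 78 members, where 17.9% of all genes tested were called (8.35% higher, 9.53% lower). The median member difference was 0.10, with 62 of 78 above 0. The higher members were Rps2, Rps3, which lies beside Rps2 at the mRNA entry, and Rpl8, at the core of the large subunit. Rps3 was at 175.2, 196 and 246 CPM (lowest, median, highest) in MCF10A/miR-122 EV and 160.5, 171 and 182 CPM in PBS. All 6 libraries were above the PBS median, but the groups overlapped. The log2 fold change was 0.22 ± 0.07 for Rps3 (edgeR adjusted p = 0.0352), 0.26 ± 0.08 for Rpl8 (0.0358) and 0.28 ± 0.09 for Rps2 (0.0371). These 3 calls also rest on the scaling and the libraries fitted. The edgeR adjusted p-values for Rps3, Rpl8 and Rps2 were 0.201, 0.151 and 0.133 with library totals, 0.109, 0.0753 and 0.071 with only the 12 libraries of the pair, and 0.226, 0.244 and 0.0939 with identities from the library names. That last setting swaps the groups with conflicting names, so its values are those of the libraries labelled MDA-MB-231 EV over PBS. Scaled to the summed counts of the members, the edgeR adjusted p-values were 0.405, 0.193 and 0.0986, and the replicate block gave 0.0529 for Rps3 and 0.0561 for Rpl8. Without MCF10A/miR-122 EV replicate 3 the log2 fold changes were 0.14, 0.20 and 0.26 with edgeR adjusted p-values of 0.112, 0.1 and 0.0724 for Rps3, Rpl8 and Rps2, and all 3 were also lost without PBS replicate 1, 4 or 6. Rps3 was lost too without MCF10A/miR-122 EV replicate 4 or 6, Rps2 without replicate 4, 5 or 6 of that group or PBS replicate 2, and Rpl8 without replicate 5 of that group or PBS replicate 3. Markers of Kupffer cells and macrophages were higher in the same comparison (6 of 10 called), with summed levels of 276 to 664 CPM in MCF10A/miR-122 EV and 287 to 373 CPM in PBS; their part in these values was not tested.

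In MDA-MB-231 EV livers, no member was higher and 2 were lower than in PBS livers (2.56% of members, against 11.7% of all genes, 5.33% higher and 6.34% lower), with a member median of 0.06 and 59 of 78 above 0. With library totals in place of TMM factors this median turned to -0.06 with 25 of 78 above 0, as the median of all genes shifted by -0.13. The lower members were Rpl34 and Rps21. Rps21 had an edgeR adjusted p of 0.0289 at a log2 fold change of -0.36 ± 0.11 and was lost without PBS replicate 2, 3 or 5 or MDA-MB-231 EV replicate 4 or 5 (adjusted p of 0.0539 to 0.0609). Its call was also lost with identities from the library names, which swap the groups with conflicting names. Rpl9, next by p, was at -0.22 (edgeR adjusted p = 0.0742).

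Rpl34, a large-subunit protein, was the member that stood apart in 4 comparisons. It was at 19.95, 22.2 and 24.4 CPM (lowest, median, highest) in MDA-MB-231 EV, 18.6, 23.1 and 27.3 CPM in MCF10A/miR-122 EV, 30.9, 34.8 and 38.3 CPM in MCF10A EV and 27.5, 29.96 and 32.9 CPM in PBS. The 12 libraries of the first 2 groups all lay below the 12 of the others. Against PBS it fell by 0.42 (SE 0.08, edgeR adjusted p = 0.0019) in MDA-MB-231 EV and by 0.35 (SE 0.08, edgeR adjusted p = 0.00471) in MCF10A/miR-122 EV on the log2 scale. Against MCF10A EV the log2 fold changes were -0.64 ± 0.08 (edgeR adjusted p = 1.65e-05) and -0.57 ± 0.08 (4.82e-05). Libraries that do not overlap were found for 1 member in each comparison with PBS, where 6.22% and 5.88% of all genes did not overlap. As a share of the counts of all 78 members, a measure free of scaling, Rpl34 took 0.252% to 0.278% in MDA-MB-231 EV, 0.266% to 0.292% in MCF10A/miR-122 EV, 0.373% to 0.403% in MCF10A EV and 0.354% to 0.408% in PBS. No library left out, and no other setting, ended the call in any of the 4 comparisons. Rpl34-ps1 held nearly the same counts, whether the 2 rows share reads is not given in the sources used here, and the split of the libraries by Serpina3a is the same split.

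**Figure D3:**
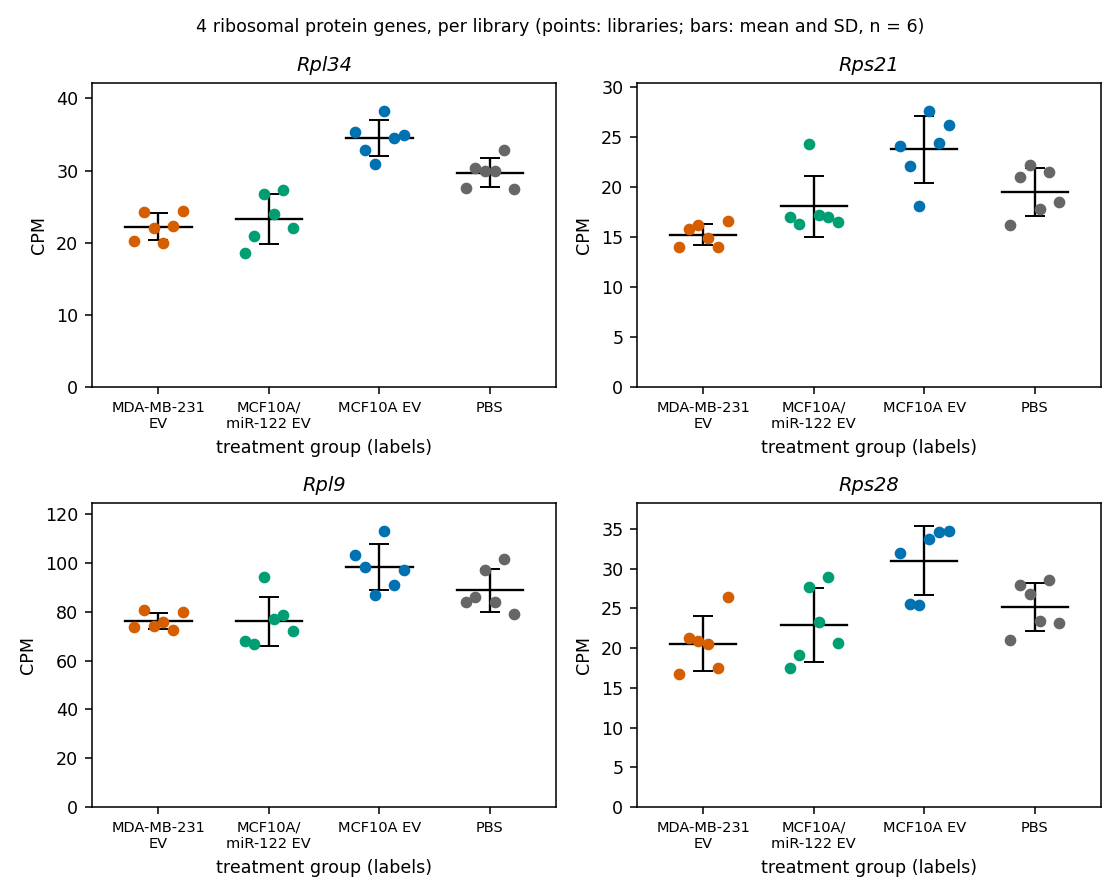
CPM of Rpl34, Rps21, Rpl9 and Rps28 (vertical axes, from 0) in each library by treatment group; points are libraries, bars are the mean and SD (n = 6). For Rpl34 the MDA-MB-231 EV and MCF10A/miR-122 EV libraries lie below all others, while the other 3 genes overlap with PBS.

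Against MCF10A EV, MCF10A/miR-122 EV livers had 6 members lower and none higher (7.69% of members, against 16.2% of all genes, 7.53% higher and 8.71% lower), with a median of -0.11 and 66 of 78 below 0. Libraries did not overlap for 1 member, Rpl34, and for 5.63% of all genes. After Rpl34, the smallest p-values were those of Rpl9, Rps21 and Rpl12, a protein at the base of the stalk. Rpl9 was at 66.9, 74.7 and 94.2 CPM in MCF10A/miR-122 EV and 86.9, 97.7 and 113 CPM in MCF10A EV (log2 fold change -0.37 ± 0.08, edgeR adjusted p = 0.00284). Rps21 was at 16.3, 17.0 and 24.3 CPM and Rpl12 at 50.7, 59.4 and 66.4 CPM in MCF10A/miR-122 EV, against 18.2, 24.3 and 27.6 CPM and 57.0, 76.6 and 88.3 CPM in MCF10A EV. All 3 overlapped between the groups. The log2 fold changes were -0.40 ± 0.10 for Rps21 (edgeR adjusted p = 0.0114) and -0.36 ± 0.10 for Rpl12 (0.0172). The remaining 2 were Rps28 at -0.44 and Rpl30 at -0.34, and Rpl30 was lost without MCF10A EV replicate 1, 4 or 5 or MCF10A/miR-122 EV replicate 1, 2 or 6. Rpl30 was also lost with only the 12 libraries of the pair and with identities from the library names. In this comparison 8 of 10 Kupffer cell and macrophage markers were higher, at 276 to 664 summed CPM in MCF10A/miR-122 EV and 258 to 305 CPM in MCF10A EV, and their part in these values was not tested.

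MDA-MB-231 EV livers had 8 members lower than MCF10A EV livers and none higher, 10.3% of members, where 7.68% of all genes were called 3.24% higher and 4.44% lower. The member median was -0.16, with 70 of 78 below 0. Libraries did not overlap for Rpl34, Rps21 and Rpl9, 3 of the 78 members, against 5.05% of all genes. Rps21 was at 14.03, 15.4 and 16.6 CPM in MDA-MB-231 EV and 18.2, 24.3 and 27.6 CPM in MCF10A EV (log2 fold change -0.64 ± 0.11, edgeR adjusted p = 0.000373). Rps28 was at 16.8, 20.7 and 26.4 CPM in MDA-MB-231 EV and 25.4, 32.8 and 34.7 CPM in MCF10A EV (-0.59 ± 0.13, edgeR adjusted p = 0.00482). Rpl9 was at 72.6, 75.0 and 80.6 CPM in MDA-MB-231 EV and 86.9, 97.7 and 113 CPM in MCF10A EV (-0.37 ± 0.08, edgeR adjusted p = 0.00546). The other 4 were Rplp2 at -0.39, Rps29, a zinc-finger protein of the small subunit, at -0.37, Rpl37, also with a zinc finger, at -0.34 and Rpl12 at -0.33. Each of these 4 lost its call without any 1 of 6 to 9 of the 12 libraries, MCF10A EV replicates 1, 4 and 5 and MDA-MB-231 EV replicates 1, 4 and 5 in every case, with edgeR adjusted p-values up to 0.107. Rps29 and Rpl37 were lost as well without MCF10A EV replicate 6 or MDA-MB-231 EV replicate 2 or 3, and Rpl12 without MCF10A EV replicate 2 or 6 or MDA-MB-231 EV replicate 3. Rplp2, Rps29 and Rpl37 were also lost with identities from the library names, which swap the groups with conflicting names. Without a filter on low counts Rpl12 and Rpl37 were lost. Rpl12 was lost too with the replicate block and with scaling to the summed counts of the members. Wdr89, which shares words with Rplp2, held 262% to 279% of the count of Rplp2 in MDA-MB-231 EV and 214% to 223% in MCF10A EV. How reads were split between these rows is not given in the sources used here.

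Between the 2 groups with conflicting names, no difference in these genes passed the threshold. MDA-MB-231 EV livers over MCF10A/miR-122 EV livers gave no member called (0.254% of all genes were, 0.0436% higher and 0.211% lower), no member without overlap (0.733% of all genes), a median of -0.04, and 1 member with an unadjusted p under 0.05, against 8.19% of all genes. DESeq2 and limma-voom also called none. That member was Rps21, at -0.24 ± 0.11 (edgeR adjusted p = 0.519). Rpl8 at -0.10 (0.827) and Rps28 at -0.15 (0.831) came next by edgeR adjusted p.

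**Figure D4:**
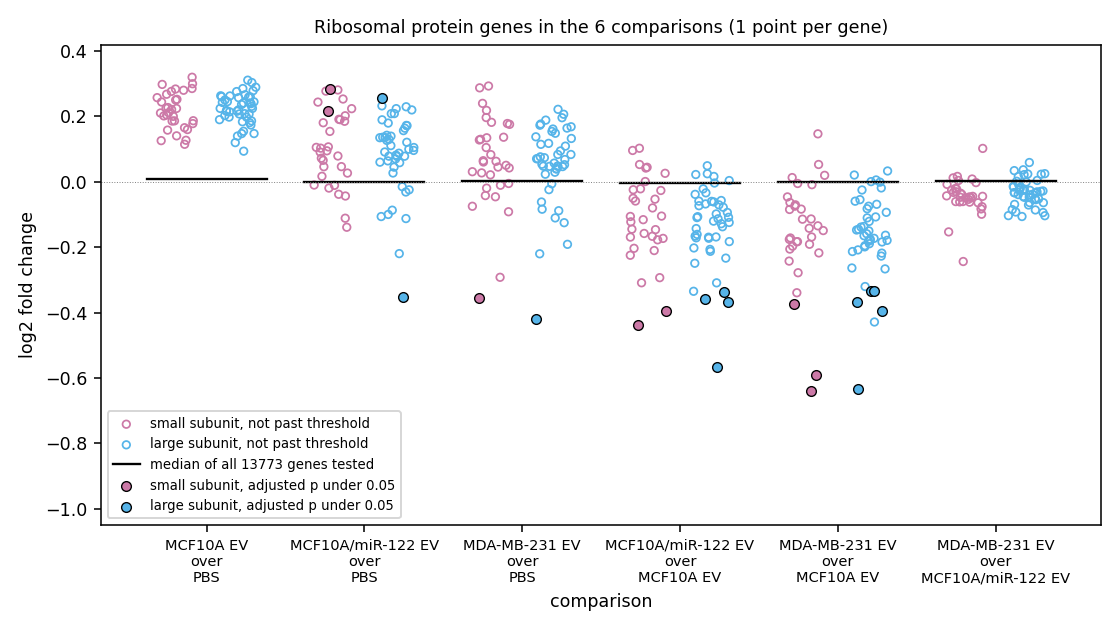
Log2 fold change (vertical axis) of the 78 genes in the 6 comparisons, 1 point per gene, small subunit left and large subunit right; filled points passed an adjusted p of 0.05, and black lines are the median of all 13773 genes tested. All points of MCF10A EV over PBS lie above 0 without a call, and Rpl34 and Rps21 are the lowest filled points in MDA-MB-231 EV over MCF10A EV.

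The comparisons with PBS share its 6 libraries, and those with MCF10A EV share its 6, so the members' values in them are not independent. Side by side, in MDA-MB-231 EV, MCF10A/miR-122 EV and MCF10A EV over PBS, the log2 fold changes were -0.36, -0.11 and 0.28 for Rps21, -0.29, -0.14 and 0.30 for Rps28, and -0.22, -0.22 and 0.15 for Rpl9. For Rps6 they were 0.20, 0.24 and 0.20, for Rpl4 0.17, 0.14 and 0.14, and for Rpl22 0.09, 0.06 and 0.09. None of these passed the threshold against PBS except Rps21 in MDA-MB-231 EV.

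The balance of the 2 subunits was taken as the log2 ratio of summed small-subunit to summed large-subunit counts, which does not depend on library scaling. It was -0.467 ± 0.00862 in MDA-MB-231 EV, -0.458 ± 0.0140 in MCF10A/miR-122 EV, -0.504 ± 0.0190 in MCF10A EV and -0.497 ± 0.0111 in PBS (SD, n = 6 each). The 12 libraries of the first 2 groups, at -0.479 to -0.432, did not overlap with the 12 others, at -0.538 to -0.481. In percent, small-subunit genes held 41.8% to 42.6% of the members' counts in the 12 libraries of MDA-MB-231 EV and MCF10A/miR-122 EV and 40.8% to 41.7% in the other 12. The differences were 0.03 for MDA-MB-231 EV and 0.04 for MCF10A/miR-122 EV over PBS, 0.04 and 0.05 over MCF10A EV, and -0.01 for MCF10A EV over PBS. They were smaller with each gene weighted alike, at 0.01 and 0.02 over PBS and 0.01 and 0.02 over MCF10A EV, and no p is given for a score over chosen genes. Weighted alike, the libraries of the 4 groups overlapped, at -0.00929 to 0.0178 in MDA-MB-231 EV, -0.00416 to 0.0569 in MCF10A/miR-122 EV, -0.0417 to 0.0146 in MCF10A EV and -0.0192 to 0.0148 in PBS. Rps2 alone took 4.54% to 5.12% of the members' counts in MDA-MB-231 EV, 4.60% to 5.28% in MCF10A/miR-122 EV, 4.15% to 4.80% in MCF10A EV and 4.08% to 4.79% in PBS.

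**Figure D5:**
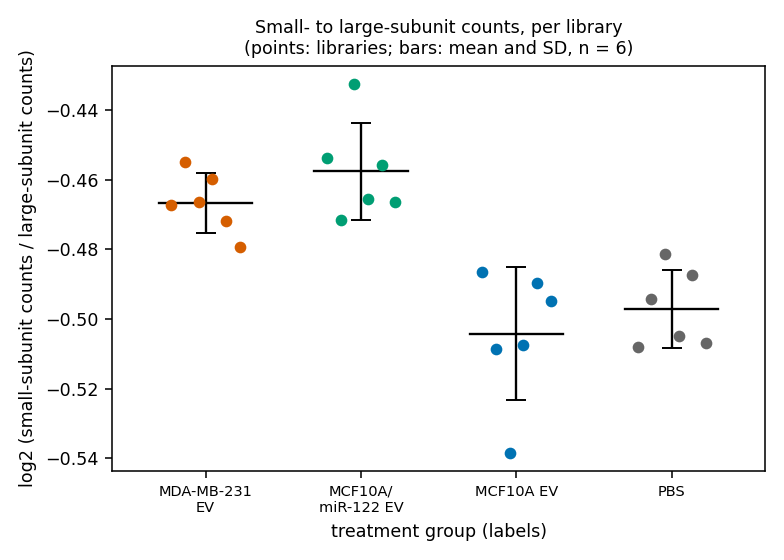
Log2 ratio of summed small-subunit to large-subunit counts (vertical axis, not from 0) in each library by treatment group; points are libraries, bars are the mean and SD (n = 6). The MDA-MB-231 EV and MCF10A/miR-122 EV libraries, at -0.479 to -0.432, lie above the MCF10A EV and PBS libraries, at -0.538 to -0.481.

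Fold changes were also read against sequence sharing. The 4 members with under 50% of their words shared had medians of 0.16 in MDA-MB-231 EV, 0.24 in MCF10A/miR-122 EV and 0.17 in MCF10A EV over PBS, and 4 of 4 were above 0 in each. The 32 with all words shared had medians of 0.05, 0.08 and 0.24, with 21, 24 and 32 of 32 above 0. Across the 78 genes the rank correlation of log2 fold change with the shared percent was -0.25, -0.27 and 0.23 in these comparisons, and with mean CPM it was 0.43, 0.46 and -0.34.

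Some ribosomal proteins have symbols outside the rule. Fau encodes a ribosomal protein fused to a ubiquitin-like protein, Gnb2l1 encodes the scaffold Rack1, and Rpl36al is a paralogue of Rpl36a. Of 4 such genes tested, these 3 included, none was called in MCF10A EV over PBS, with a median log2 fold change of 0.23. The log2 fold changes were 0.22 for Fau, 0.18 for Gnb2l1 and 0.31 for Rpl36al (edgeR adjusted p-values of 0.28, 0.243 and 0.0854). Gnb2l1 averaged 256 ± 34.6 CPM in MCF10A/miR-122 EV and 215 ± 20.1 CPM in PBS (SD, n = 6 each) and was called higher (0.25, edgeR adjusted p = 0.0329). Fau averaged 82.4 ± 5.50 CPM in MDA-MB-231 EV and 107 ± 17.8 CPM in MCF10A EV and was called lower (-0.37, edgeR adjusted p = 0.0288). None of the 5 tested paralogues (Rpl7l1, Rpl22l1, Rsl24d1, Rps4y2 and the member Rps27l) was called in any comparison.

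Among the 76 mitochondrial ribosomal protein genes, whose ribosome makes the respiratory chain proteins encoded in mitochondria, none was called in MCF10A EV over PBS, with a median of 0.09 and 68 of 76 above 0. Over PBS, 2 were higher and 3 lower in MDA-MB-231 EV, and 2 higher and 4 lower in MCF10A/miR-122 EV, where 11.7% and 17.9% of all genes were called. Mrps2 averaged 29.3 ± 2.16 CPM in MDA-MB-231 EV, 28.0 ± 2.43 CPM in MCF10A/miR-122 EV, 36.1 ± 4.23 CPM in MCF10A EV and 35.1 ± 3.47 CPM in PBS (SD, n = 6 each), and was called lower in the first 2 groups against each of the last 2.

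Of 48 tested ribosome biogenesis factors, 8 were higher and 1 lower in MCF10A/miR-122 EV over PBS, and 4 higher and 1 lower in MDA-MB-231 EV over PBS; none was called in MCF10A EV over PBS. The shares of all genes called in the 3 comparisons were 17.9%, 11.7% and 1.07%. Nop56, a core protein of box C/D particles that methylate ribosomal RNA, averaged 18.2 ± 2.51 CPM in MCF10A/miR-122 EV and 13.1 ± 1.83 CPM in PBS (log2 fold change 0.48, edgeR adjusted p = 0.00298). Ncl, nucleolin, averaged 139 ± 7.51 CPM in MCF10A/miR-122 EV, 136 ± 4.96 CPM in MDA-MB-231 EV, 103 ± 10.8 CPM in MCF10A EV and 117 ± 7.17 CPM in PBS. It was called higher in both of the first 2 groups against each of the last 2, as log2 fold changes of 0.22 to 0.43.

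The small nucleolar RNA host genes, whose spliced RNAs are also of the TOP class, had medians over PBS of 0.27 in MDA-MB-231 EV, 0.32 in MCF10A/miR-122 EV and 0.14 in MCF10A EV, with 2, 2 and 0 of 10 called, all higher. Gas5 averaged 47.8 ± 6.97, 48.6 ± 11.2 and 36.3 ± 1.076 CPM in MDA-MB-231 EV, MCF10A/miR-122 EV and PBS, with edgeR adjusted p-values of 0.0274 and 0.0145 over PBS, and Snhg3 was the other. Of 19 other TOP genes, Gas5 included, 2 were higher in MDA-MB-231 EV and 3 in MCF10A/miR-122 EV over PBS, Eif3f, a subunit of initiation factor eIF3, in both, and 1, the importin Ipo5, was lower in MCF10A EV. Of 33 initiation factors 1, again Eif3f, was called over PBS in MDA-MB-231 EV and in MCF10A/miR-122 EV and none in MCF10A EV. No elongation or termination factor of 11 was called over PBS, and of 14 genes of the RNA polymerase I machinery only Taf1b, lower in MCF10A/miR-122 EV (-0.59), was called over PBS. Of all genes tested, 11.7% were called over PBS in MDA-MB-231 EV, 17.9% in MCF10A/miR-122 EV and 1.07% in MCF10A EV (5.33%, 8.35% and 0.37% higher).

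Among 25 genes of mTORC1 and of TOP mRNA control, 3 were higher and 1 lower in MDA-MB-231 EV over PBS, 6 were higher in MCF10A/miR-122 EV and 1 in MCF10A EV, against 11.7%, 17.9% and 1.07% of all genes called. Rps6kb1, the S6 kinase, was called higher in MDA-MB-231 EV (0.33) and in MCF10A/miR-122 EV (0.36) over PBS. Larp1, which binds the TOP motif and the mRNA cap, averaged 103 ± 5.61 CPM in MDA-MB-231 EV and 124 ± 10.0 CPM in PBS (-0.27, edgeR adjusted p = 0.0304). Eif4ebp3, a translation repressor, was called higher in MCF10A/miR-122 EV (1.05) and in MCF10A EV (1.03) over PBS, at 29.7 ± 7.19 and 29.5 ± 7.68 CPM against 14.4 ± 7.04 CPM in PBS.

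The promoter table of RefSeq (GRCm38.p6, 250 bases before to 50 after the annotated start) held 58 of the 78 members. Shown as examples are 4 windows of 40 bases before and 15 from the start, each with a pyrimidine run at the start, in capitals. Rps6, Rpl15 and Rpl28 have long runs, and Rps21, shown at the first of its 2 annotated starts, is one of the called genes. Whether such runs bear on the counts was not tested.
Rps6, chr4:86857353-86857407, minus strand: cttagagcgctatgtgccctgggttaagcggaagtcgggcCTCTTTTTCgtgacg
Rpl15, chr14:18270972-18271026, minus strand: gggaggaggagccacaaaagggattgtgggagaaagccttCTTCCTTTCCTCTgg
Rpl28, chr7:4792925-4792979, plus strand: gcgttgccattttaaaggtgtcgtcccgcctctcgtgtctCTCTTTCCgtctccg
Rps21, chr2:180257339-180257393, plus strand: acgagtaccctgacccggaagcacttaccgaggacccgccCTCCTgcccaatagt
A C at the annotated start followed by 4 bases that are each C or T was found in 13 of the 58 (22.4%), and in 3.01% of the 27025 genes in the table. A C followed by 7 such bases anywhere within 25 bases of the start on the transcribed strand, which can overlap the first motif, was found in 53.4% of the members and 17.7% of the genes. CCGGAAG, the core bound by ETS-family factors, was found on either strand in 43.1% and 9.93%, and TATAAA, the TATA box, in 10.3% and 15.7%. The first motif, which needs a C at the annotated base, was absent at the second start of Rps21 and at either start of Rpl34. It was absent too at those of Rpl9, Rpl12, Rpl37, Rps2, Rps3 and Rps28, while Rplp2 had a run of 5 bases. In the Rpl34 window at chr3:130730323-130730377, however, the annotated base is a T inside a longer stretch of C and T. At the other start of Rpl34 and at that of Rpl12, a stretch of C and T begins right after the annotated base. These matches describe letters in the annotated windows.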

How the data were processed

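Per the labels, a stranded mRNA kit was used for the 24 mouse liver libraries. The authors deposited 1 table of whole-number, unnormalized read counts by gene symbol. The tools bcl2fastq 2.18.0.12 and TopHat2 and the build mm9 are named, per the submitters' processing notes; which program counted reads, its strand setting and what it did with multi-mapping reads is not given in the sources used here. The 27 rows sharing 11 symbols (0.0744% of counts) were left out.

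Libraries were grouped by the treatment label. In R 4.3.3, all 24 libraries entered 1 edgeR 4.0.16 quasi-likelihood fit after filterByExpr and TMM scaling, and Benjamini-Hochberg adjustment ran over 13773 genes. SEs come from the F statistic. Libraries held 21336818 to 33732639 counts. CPM use the summed counts of the 13773 genes tested times the TMM factors, and log2 CPM used a prior count of 2. Summed marker levels and the limit of the member rule use library totals without TMM factors. The common biological coefficient of variation was 16.8%. The fit was tested on simulated data.

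Sequence sharing was counted as 32-base words of the coding sequence found in other GENCODE M21 transcripts; 77 members matched by symbol and 1 through a RefSeq synonym. GENCODE M21 is on GRCm38 and the counts on mm9, so it served for names, lengths and sequences only. DESeq2 1.42.0, limma 3.58.1 (voom), other scalings and filters, a replicate block, the library names and each library left out were tried.

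The members, the lists and the alternatives were chosen with earlier results of these data known. Named genes are all members called, the 3 smallest p where fewer than 3 were called, the 3 highest and lowest per kb, the 3 most and least variable, and 10 members of known further roles; list genes are those with the smallest p.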

Additional observations from a re-analysis of the deposited data

Results flagged for a closer look

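In 324 groups of 6 libraries (each member in each group, and summary measures), 3 had a lowest or highest library with a gap beyond Dixon's 95% critical value; chance flags about 1 in 20 groups. Replicate 6 of MDA-MB-231 EV had 0.901% of its counts in the 78 genes, where the other 5 libraries of that group had 0.754% to 0.803%. Replicate 3 of MCF10A/miR-122 EV had 24.3 CPM of Rps21, against 16.3 to 17.3 CPM in the other 5, and 303 CPM of Rplp0, against 196 to 235 CPM in the other 5.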

How the results depend on the processing

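The count of members past the threshold was 0 in MCF10A EV over PBS and in MDA-MB-231 EV livers over MCF10A/miR-122 EV livers under every alternative, leave-one-out included. In MCF10A/miR-122 EV over PBS the count of 4 became 2 with library totals, 7 with DESeq2, 1 with only the 12 libraries of the pair, and 2 with identities from the library names. The library names swap the groups with conflicting names, so each of these groups takes the other's count. In MDA-MB-231 EV over PBS the count of 2 became 5, 4 and 4 with library totals, with only the 12 libraries and with the library names, and 6 with scaling to the summed counts of the 78 genes, a setting chosen after seeing the data. That scaling gave 10 in place of 6 in MCF10A/miR-122 EV over MCF10A EV. Leaving out 1 library gave 1 to 10 in MCF10A/miR-122 EV over PBS, 1 to 3 in MDA-MB-231 EV over PBS, 5 to 11 in MCF10A/miR-122 EV over MCF10A EV and 4 to 12 in MDA-MB-231 EV over MCF10A EV. The subunit ratio kept its sign over PBS and over MCF10A EV; as a mean over genes of log2 CPM its differences for MCF10A/miR-122 EV were 0.0213 over PBS and 0.0248 over MCF10A EV, and for MDA-MB-231 EV 0.00957 and 0.0131. Between the groups with conflicting names it was -0.00898, and 0.00898 with the library names, which swap the groups. Leaving out 1 library gave ratios of 0.0345 to 0.0426 and 0.0282 to 0.0337 over PBS, 0.0398 to 0.0502 and 0.0308 to 0.0412 over MCF10A EV (MCF10A/miR-122 EV first in each), -0.0107 to -0.000313 for MCF10A EV over PBS and -0.0118 to -0.00396 between the groups with conflicting names. Without members sharing 10% or more of their words no ratio could be had, since no large-subunit gene remains. Whether the replicate numbers pair the libraries is not settled. Same-numbered deviations correlated at -0.43 to 0.37, and in no comparison were all 6 pairs over 0.1. Libraries with different numbers were not set beside them, so this cannot exclude a pairing. With the number as a replicate block, the counts were 2 in MCF10A/miR-122 EV over PBS, where Rps3 and Rpl8 were lost, and 0, 2, 7, 8 and 0 in the others (MCF10A EV and MDA-MB-231 EV over PBS, both other EV groups over MCF10A EV, MCF10A/miR-122 EV first, and the groups with conflicting names); in MDA-MB-231 EV over MCF10A EV, where the count stayed at 8, Rpl12 was lost (adjusted p = 0.0505). The causes were not tested.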

Other observations

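With the summed counts of the 78 genes as the scale, a setting chosen after seeing the data, Rpl9, Rpl34, Rplp2 and Rps28 were lower in both MDA-MB-231 EV and MCF10A/miR-122 EV than in PBS. The log2 fold changes were -0.31 and -0.34 for Rpl9, -0.52 and -0.48 for Rpl34, -0.28 and -0.23 for Rplp2, and -0.39 and -0.27 for Rps28, all with an edgeR adjusted p under the threshold. The ratio of Wdr89 to Rplp2 was higher in MDA-MB-231 EV and MCF10A/miR-122 EV than in PBS, and how reads were split between these rows is not given. Rps21 was called in MDA-MB-231 EV, at -0.44. No member was called higher on this scale in any comparison. The scale holds the members' own sum level, and the share of all genes called on it is not given here. With TMM scaling, 11.7% of all genes were called in MDA-MB-231 EV and 17.9% in MCF10A/miR-122 EV over PBS.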
